A study of Homo sapiens with 6 samples.

Results

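The genes described here are 40 genes of epithelial cell junctions and epithelial identity, taken by symbol from a fixed list. The list was chosen with earlier results of these data known. All 40 were found in a table of 20263 genes from HCT116 cells, a widely used human line of colorectal cancer. By junction type they are 9 adherens junction genes, 10 desmosome genes, 13 tight junction genes, 2 gap junction genes and 6 regulators or markers of epithelial cells. RNA was sequenced from 3 samples labelled wild type (WT) and 3 samples of the same line treated with CSE, and the level of each gene is given in TPM, a length-corrected share of all transcripts. The labels do not spell out CSE, which is read as cigarette smoke extract because the series title names smoking. Dose, exposure time and solvent do not appear in the labels, and no genetic change was labelled in either group. All samples are of 1 cell line, and nothing says that those of a group were grown apart, so the p-values here reflect the spread among 3 samples a group, part or all of which may be technical.

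Epithelial cells are held together by several kinds of junction. In adherens junctions, classical cadherins bind their like on the next cell and are tied to actin by beta- and alpha-catenin. The protein p120-catenin holds cadherins at the membrane, and nectins and afadin form a parallel adhesion system. In desmosomes, desmogleins and desmocollins bind plakoglobin and plakophilins, and plakin proteins such as desmoplakin link these to keratin filaments. In tight junctions, claudins form the strands that seal or conduct ions between cells, occludin and the MARVELD proteins accompany them, and the ZO scaffolds lie beneath. Gap junctions are channels of connexins that pass small molecules from cell to cell. ESRP1 and ESRP2 direct epithelial splicing, GRHL2 is a transcription factor of epithelial genes, ST14 encodes the membrane protease matriptase, and EPCAM and MUC1 encode surface glycoproteins of epithelia.

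The 6 libraries had the profile of an epithelial line. KRT8, KRT18 and KRT19, keratins of simple epithelia, lay between 1093 and 2456 TPM in every library, and the intestinal factor gene CDX2 between 8.29 and 10.54 TPM. These levels were not all stable in the test described below. KRT18 fell with CSE, from a mean of 1769 to 1488 TPM. KRT19 rose from 1840 to 2327 TPM and CDX2 from 8.85 to 10.16 TPM. KRT8 did not pass, nor did KRT20, with means of 4.47 and 4.78 TPM. The enterocyte genes VIL1 (at most 0.05 TPM) and LGALS4 (at most 0.37 TPM) were near 0, and CDX1 was listed at 0 throughout. Of 6 fibroblast markers only COL1A1 reached 1 TPM, and the list summed to 43.9 to 46.0 TPM in WT and 38.04 to 38.66 TPM in CSE, with DCN listed at 0. Of 5 leukocyte markers only CD68 did, and the list summed to 17.9 to 18.8 TPM in WT and 12.6 to 13.5 TPM in CSE, with PTPRC at most 0.03 TPM. No endothelial marker of 4 reached 1 TPM in 3 libraries. The part of COL1A1 and CD68, which were lower in CSE, in the results below was not tested. Mitochondrially encoded genes held 27.0% to 30.2% of the TPM in WT and 25.5% to 25.8% in CSE. The depth of the libraries is unknown, and in bulk RNA fewer cells of a kind and less RNA per cell cannot be told apart.

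Most of the 40 genes were clearly expressed, and more of them rose than fell with CSE. In each of the 6 libraries the level ran from below 1 TPM for GJA1, a connexin gene, to above 300 TPM for the highest of EPCAM and CLDN7, as the plot of levels by gene shows. Of the 40 genes, 38 reached the filter of 1 TPM in at least 3 libraries and were tested with limma on log2(TPM + 1), with p-values adjusted over all genes tested. Of these 38, 18 rose, 6 fell and 14 did not pass, so 63.2% were called, against 50.1% of the 12793 genes tested. The share that rose was 47.4% against a background of 24.5%, and the share that fell was 15.8% against 25.6%. Without CLDN1, which passed the filter through the WT libraries alone, 18 of 37 rose and 5 fell, so 62.2% were called. The WT and CSE values did not overlap for 26 of the 38, which is 68.4%, against 57.4% of all genes tested. Because the 40 genes were chosen with earlier results of these data known, these comparisons with the background are description only. The changes were small: the median size over the 24 called genes was 0.24 on the log2 scale, compared with 0.25 over all called genes, and 0 of the 24 reached 1.5-fold on that scale. The median log2 fold change was 0.12 over the 38 genes and -0.004 over all genes tested.

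**Figure D1:**
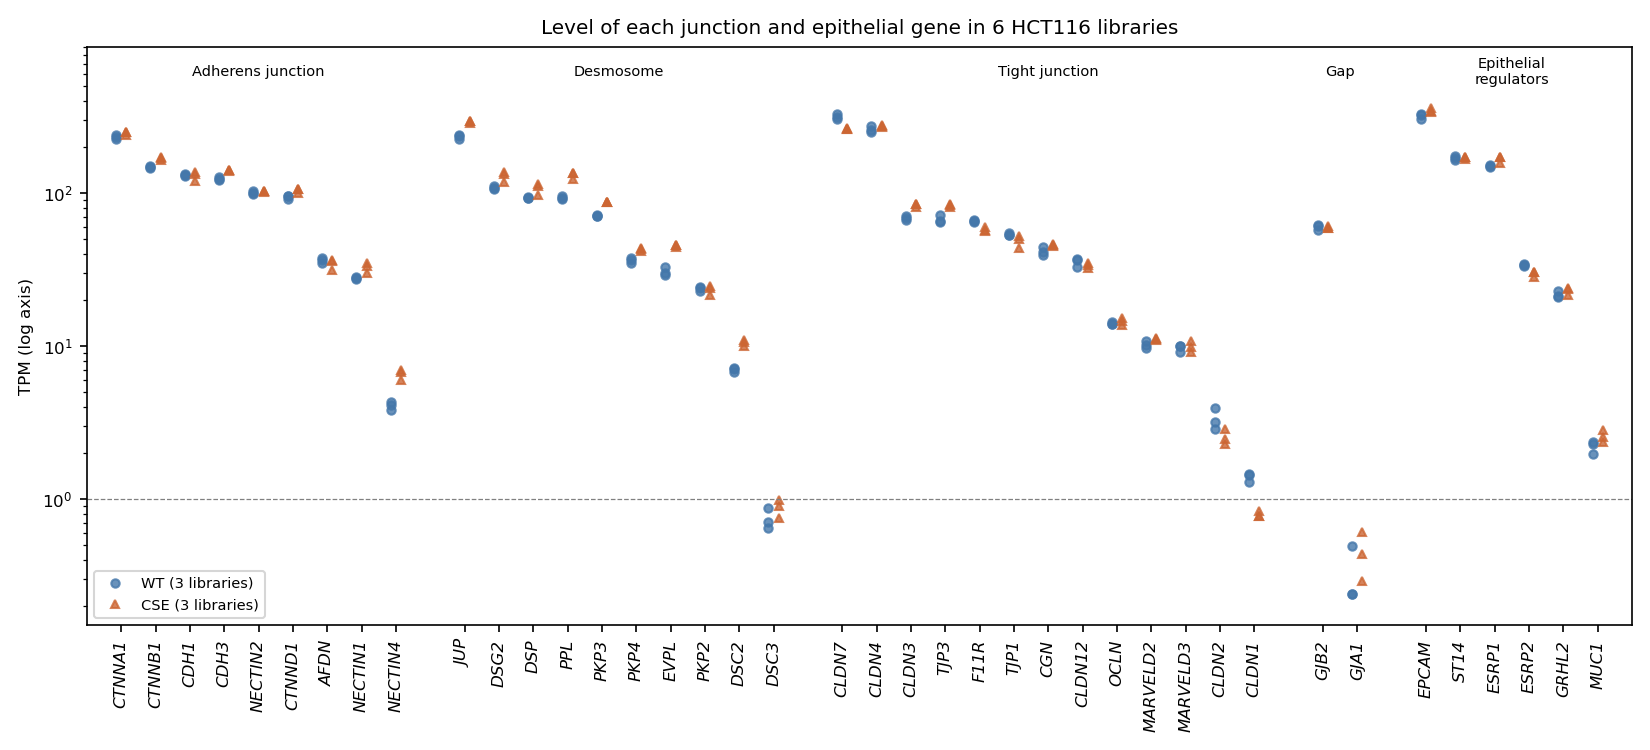
TPM of the 40 genes in each library, on a log axis, grouped by junction type and ordered by the WT mean; blue circles are the 3 WT libraries, orange triangles the 3 CSE libraries, and the dashed line marks 1 TPM. EPCAM, CLDN7, CLDN4, JUP and CTNNA1 are the most abundant, while DSC3, CLDN1 and GJA1 lie near or below 1 TPM.

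The direction differed by junction type in these counts, though the difference between types was not tested. Desmosome genes were called in 8 of 9 tested cases and all 8 rose. Of the 9 adherens junction genes 5 rose and 0 fell. Tight junction genes were split, with 3 rising and 5 falling of 13. One of those 5, CLDN1, passed the filter through the WT libraries alone and so had to be lower in CSE. Without it the counts were 3 rising and 4 falling of 12. The 1 tested gap junction gene did not pass, and of 6 epithelial regulators and markers 2 rose and 1 fell. The called share was 88.9% for desmosome, 55.6% for adherens, 58.3% for tight junction genes without CLDN1 and 50% for the epithelial group. Over all genes tested it was 50.1%, so all but the desmosome share lay near that background. Of all genes tested 24.5% rose and 25.6% fell, beside 25% and 33.3% of the tight junction genes without CLDN1. The summed TPM followed these counts: the desmosome genes summed to 699 ± 11.97 TPM in WT and 872 ± 36.9 in CSE (SD, n = 3), the adherens genes to 899 ± 16.1 and 967 ± 28.9, and the tight junction genes to 946 ± 35.2 and 930.1 ± 7.03. In the deposited TPM the ranges of the libraries did not overlap for the desmosome, adherens and epithelial groups. They overlapped for the tight and gap junction groups. For 2 groups this depends on the scaling. With mitochondrially encoded genes left out, the adherens ranges overlap, and the tight junction ranges no longer do, with CSE lower.

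The counts shifted with the scaling. Leaving out mitochondrially encoded genes moved the share of all called genes that were higher in CSE from 48.9% to 34.1% and the median over all genes to -0.06. With that scaling 15 of the 38 genes were higher and 7 lower, and 8 desmosome genes were again higher. CSE replicate 3 was the lowest of the 3 CSE libraries for 28 of the 38 genes (73.7%) and for 57.9% of all genes tested. Without CSE replicate 3, 20 genes were higher and 5 lower, and over all genes tested 3536 were higher and 3037 lower, which put 53.8% of all calls higher.

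**Figure D2:**
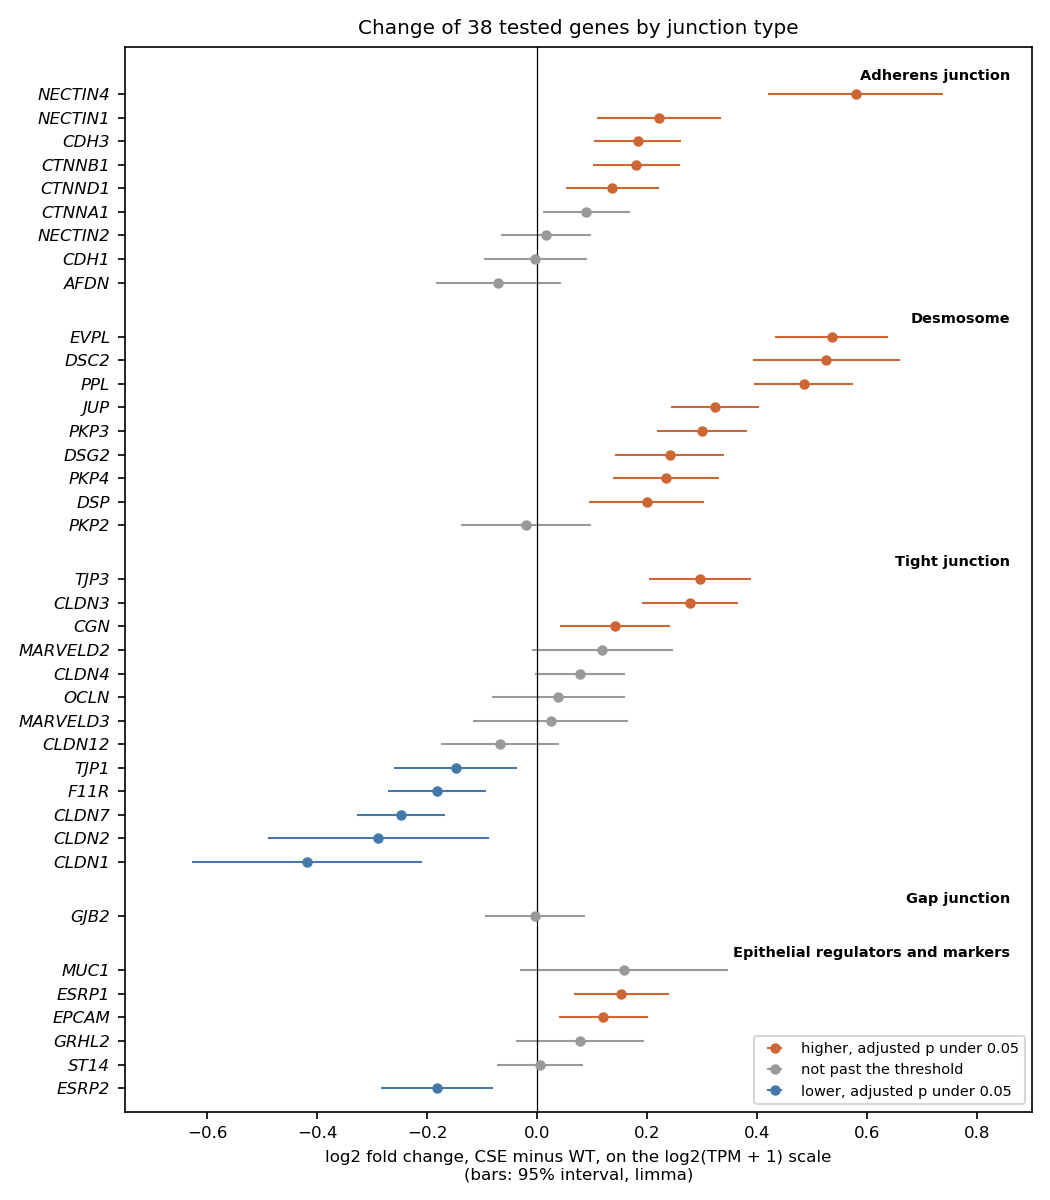
Log2 fold change (CSE minus WT, from log2(TPM + 1) values) of the 38 tested genes, with 95% intervals from limma; orange marks genes that rose, blue genes that fell, and grey genes past no threshold. Among desmosome genes 8 of 9 lie to the right of 0 with intervals that exclude it. Tight junction genes spread to both sides, from 0.30 for TJP3 to -0.42 for CLDN1, which passed the filter through WT alone.

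**Figure D3:**
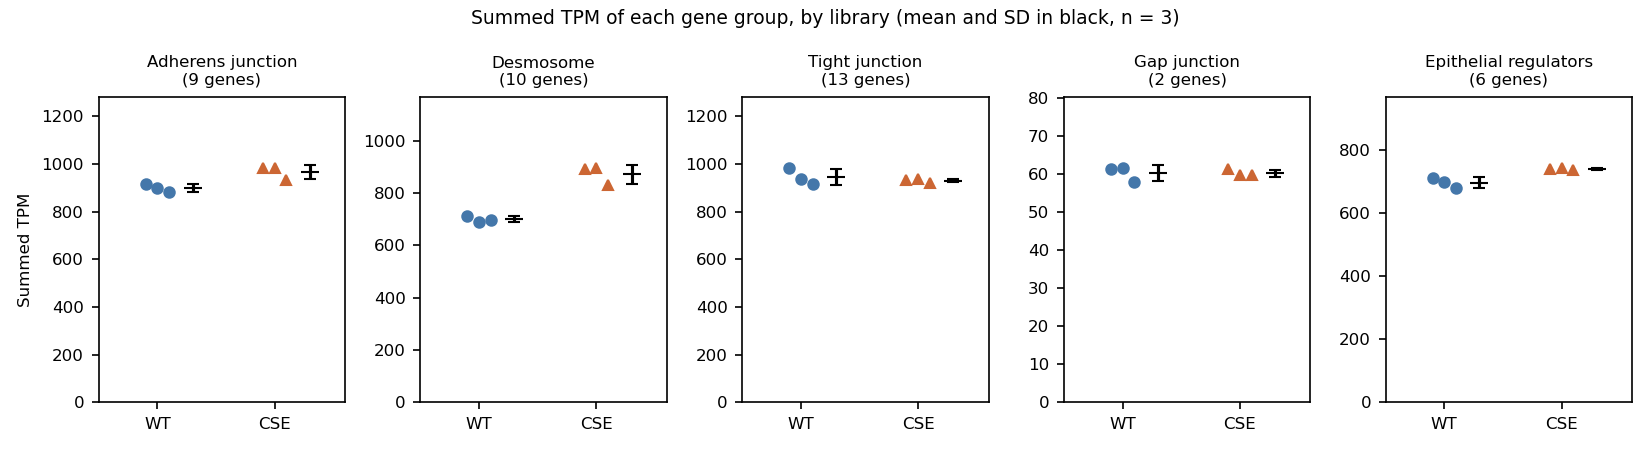
Summed TPM of each group of genes in every library, from 0, with WT as blue circles, CSE as orange triangles, and the mean and SD of 3 libraries in black. The desmosome sum stands at 690 to 713 TPM in WT and 829 to 896 TPM in CSE, while the tight junction sums overlap.

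In the adherens junction, the P-cadherin gene, the genes of beta- and p120-catenin and those of nectin-1 and nectin-4 rose, and E-cadherin did not pass. CDH1 encodes E-cadherin, the main adhesion receptor of the junction (ENSG00000039068, GRCh38 chromosome 16, 68737225 to 68835548, plus strand). It stood at 129, 132 and 130.3 TPM in the WT libraries and at 137, 134 and 120.3 TPM in the CSE libraries. The groups overlapped, with CSE replicate 3 below all WT values and the other CSE values above them. The log2 fold change was -0.003 (SE 0.0449, 95% interval -0.10 to 0.09 and limma adjusted p = 0.956). CDH3, the P-cadherin gene next to it on chromosome 16 at a distance of 14609 bases, stood at 127, 122 and 123 TPM in WT and at 142, 142 and 139 TPM in CSE. Every CSE value lay above every WT value, and the log2 fold change was 0.18 (SE 0.0384 and limma adjusted p = 0.000469).

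The genes of alpha- and beta-catenin were the most abundant of the adherens group. CTNNB1, which encodes beta-catenin, a junction protein that is also the nuclear effector of Wnt signalling, went from 151, 149 and 146 TPM in WT to 172, 170.0 and 164 TPM in CSE. The groups did not overlap, and the log2 fold change was 0.18 (SE 0.0384 and limma adjusted p = 0.000523). CTNND1, which encodes p120-catenin, the protein that holds cadherins at the membrane, went from 96.1, 95.6 and 91.9 TPM to 106, 106 and 101 TPM. Its groups did not overlap either (log2 fold change 0.14 with SE 0.0407 and limma adjusted p = 0.00823), and with mitochondrially encoded genes left out it no longer passed (0.08, limma adjusted p = 0.0617). CTNNA1, the alpha-catenin gene and the most abundant of the 9, had means of 232 and 247 TPM and did not pass (log2 fold change 0.09, limma adjusted p = 0.0574). It passed without WT replicate 1 (limma adjusted p = 0.0312), without CSE replicate 3 (0.0146) and with median-of-ratios scaling (0.0173).

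Of the 3 nectin genes and the afadin gene, 2 changed. NECTIN4, a nectin that is the target of an antibody-drug conjugate in urothelial cancer (chromosome 1, 161070995 to 161089599, minus strand), was the least abundant of the 9. It went from 4.28, 4.11 and 3.82 TPM in WT to 6.81, 5.99 and 6.95 TPM in CSE. The lowest CSE value was above the highest WT value, and of the 38 genes it had the largest rise on the log2(TPM + 1) scale (0.58 with SE 0.0767 and limma adjusted p = 2.1e-06), which is 1.62-fold by the group means. NECTIN1, a receptor for herpes simplex virus in epithelia, went from 28.0, 27.5 and 28.2 TPM to 33.2, 35.1 and 29.9 TPM. No WT value reached the CSE range, with CSE replicate 3 closest to WT (log2 fold change 0.22 with SE 0.0544 and limma adjusted p = 0.00186). NECTIN2 had means of 101 and 102 TPM, and AFDN, the actin-binding partner of nectins, 36.4 and 34.7 TPM. Neither passed, and their intervals ran from -0.07 to 0.10 and from -0.18 to 0.04 on the log2 scale.

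Desmosome genes rose from the cadherins on the cell surface to the plakins inside. The plakin genes EVPL and PPL and the desmocollin gene DSC2 rose the most, and PKP2 was the 1 tested gene that did not pass. EVPL encodes envoplakin (ENSG00000167880, chromosome 17, 76004502 to 76027452, minus strand) and PPL periplakin (ENSG00000118898, chromosome 16, 4882507 to 4960741, minus strand), partner proteins that link desmosomes to keratins and to the cornified envelope of squamous cells. EVPL went from 33.1, 29.3 and 30.2 TPM in WT to 45.5, 45.6 and 44.3 TPM in CSE. The CSE libraries lay close together and well above WT (1.46-fold, log2 fold change 0.54 with SE 0.0499 and limma adjusted p = 1.46e-08). PPL went from 95.8, 92.2 and 91.9 TPM to 136, 135 and 123 TPM. CSE replicate 3 was the lowest of its group but above every WT value (1.40-fold, log2 fold change 0.48 with SE 0.0435 and limma adjusted p = 8.29e-09). DSP, which encodes desmoplakin, the obligate plakin of desmosomes, changed less. It went from 94.0, 93.2 and 93.3 TPM to 112, 115 and 96.8 TPM. The groups did not overlap, but CSE replicate 3 lay just above WT (log2 fold change 0.20 with SE 0.0504 and limma adjusted p = 0.0024). Together the 3 plakin genes summed to 218 ± 4.57 TPM in WT and 284 ± 17.4 in CSE, and the share of that sum held by DSP went from 43.0% ± 0.686 to 37.9% ± 1.14 (SD, n = 3).

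The desmosomal cadherins were represented mostly by DSG2. DSG2, the desmoglein of simple epithelia (chromosome 18, 31498043 to 31549008, plus strand), stood at 109, 112 and 106 TPM in WT and at 133, 137 and 118 TPM in CSE. WT and CSE ranges were separate (log2 fold change 0.24 with SE 0.0478 and limma adjusted p = 0.00026). DSC2, its desmocollin counterpart from the same gene cluster (chromosome 18, 31058840 to 31102522, minus strand), stood at 6.79, 7.06 and 7.21 TPM and at 10.62, 11.02 and 10.02 TPM. Each CSE library exceeded each WT library (log2 fold change 0.53 with SE 0.0647 and limma adjusted p = 7.9e-07). With a pseudocount of 0.1 in place of 1 the log2 fold change of DSC2 was 0.58. DSC3, a desmocollin of stratified epithelia, remained below the filter, with 0.65 to 0.87 TPM in WT and 0.75 to 0.98 TPM in CSE. DSG2 held 93.3% ± 0.217 of the summed TPM of DSG2, DSC2 and DSC3 in WT and 91.9% ± 0.199 in CSE, and DSC2 held 6.03% ± 0.269 and 7.53% ± 0.231 (SD, n = 3).

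Among the armadillo proteins of the plaque, plakoglobin, plakophilin 3 and plakophilin 4 rose. JUP encodes plakoglobin, a relative of beta-catenin found in both desmosomes and adherens junctions (ENSG00000173801, chromosome 17, 41754604 to 41786931, minus strand). It was the most abundant of the 10, at 241, 225 and 235 TPM in WT and 296, 297 and 286 TPM in CSE. The groups were far apart relative to their spread (log2 fold change 0.32 with SE 0.0383 and limma adjusted p = 4.66e-07). PKP3, a plakophilin that strengthens desmosomes, went from 71.0, 70.6 and 71.8 TPM to 88.0, 87.7 and 87.7 TPM. The CSE libraries lay very close together and above every WT value (log2 fold change 0.30 with SE 0.0397 and limma adjusted p = 2.14e-06). PKP4, also called p0071, had means of 36.5 and 43.1 TPM and rose (log2 fold change 0.23, limma adjusted p = 0.000253). PKP2, which is present in most desmosome-bearing cells, had means of 23.7 and 23.4 TPM and did not pass (log2 fold change -0.02, 95% interval -0.14 to 0.10, limma adjusted p = 0.786).

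Promoter windows of 300 bases, from 250 before to 50 after the annotated start, were listed in RefSeq (GRCh38.p14) for 25 of the 40 genes. The other 15 had none: CDH1, CDH3, CTNND1, NECTIN1, PKP2, PKP3, PPL, EVPL, MARVELD3, F11R, EPCAM, ESRP1, ESRP2, GRHL2 and ST14. Of the desmosome genes that rose, 5 have a window (JUP, DSG2, DSP, DSC2 and PKP4), and those with a match are shown, with the claudin genes CLDN7 and CLDN4, which are described in the next paragraphs. Neither of the 2 windows of PKP4 held an E-box, and they are not shown. The 3 motifs searched on both strands were CACCTG, the E-box that SNAI and ZEB repressors bind (CAGGTG on the other strand), AACNNGTT, a core of the grainyhead site, and TGANTCA, an AP-1 site. None of the matches printed here overlaps another. In the sequences, capitals mark E-box matches, except in CLDN4, where they mark AP-1 matches. JUP and CLDN7 each have 2 listed windows, of which the one with a match is shown, and the first of 2 is shown for DSC2.
JUP, chr17:41785927-41786226, minus strand: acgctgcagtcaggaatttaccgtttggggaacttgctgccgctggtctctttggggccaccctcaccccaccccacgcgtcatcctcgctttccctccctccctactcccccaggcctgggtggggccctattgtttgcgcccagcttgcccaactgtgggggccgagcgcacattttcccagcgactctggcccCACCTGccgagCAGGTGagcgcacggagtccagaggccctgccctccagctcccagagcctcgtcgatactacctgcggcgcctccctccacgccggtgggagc
DSG2, chr18:31497927-31498226, plus strand: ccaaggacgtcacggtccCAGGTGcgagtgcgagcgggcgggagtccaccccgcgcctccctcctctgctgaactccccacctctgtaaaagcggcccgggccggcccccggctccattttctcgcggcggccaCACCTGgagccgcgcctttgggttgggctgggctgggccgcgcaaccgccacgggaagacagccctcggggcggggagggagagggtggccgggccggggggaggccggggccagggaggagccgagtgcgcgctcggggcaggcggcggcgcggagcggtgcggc
DSP, chr6:7541421-7541720, plus strand: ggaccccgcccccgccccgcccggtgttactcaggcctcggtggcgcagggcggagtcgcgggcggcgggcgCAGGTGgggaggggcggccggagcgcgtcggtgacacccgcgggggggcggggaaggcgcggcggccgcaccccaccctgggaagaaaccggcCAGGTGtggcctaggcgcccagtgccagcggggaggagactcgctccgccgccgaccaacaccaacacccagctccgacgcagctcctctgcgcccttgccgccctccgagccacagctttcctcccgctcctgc
DSC2, chr18:31102372-31102671, minus strand: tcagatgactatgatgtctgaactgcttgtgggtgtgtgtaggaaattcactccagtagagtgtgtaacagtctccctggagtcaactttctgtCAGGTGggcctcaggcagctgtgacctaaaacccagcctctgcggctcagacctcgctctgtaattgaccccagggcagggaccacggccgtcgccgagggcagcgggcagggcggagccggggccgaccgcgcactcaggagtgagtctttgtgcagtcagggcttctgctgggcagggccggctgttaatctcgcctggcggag
CLDN7, chr17:7262429-7262728, minus strand: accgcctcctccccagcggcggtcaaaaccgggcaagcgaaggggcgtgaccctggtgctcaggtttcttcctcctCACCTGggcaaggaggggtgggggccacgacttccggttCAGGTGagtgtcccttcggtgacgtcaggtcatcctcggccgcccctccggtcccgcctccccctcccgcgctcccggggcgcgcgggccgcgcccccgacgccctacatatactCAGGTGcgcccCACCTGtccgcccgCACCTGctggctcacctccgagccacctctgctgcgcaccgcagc
CLDN4, chr7:73830746-73831045, plus strand: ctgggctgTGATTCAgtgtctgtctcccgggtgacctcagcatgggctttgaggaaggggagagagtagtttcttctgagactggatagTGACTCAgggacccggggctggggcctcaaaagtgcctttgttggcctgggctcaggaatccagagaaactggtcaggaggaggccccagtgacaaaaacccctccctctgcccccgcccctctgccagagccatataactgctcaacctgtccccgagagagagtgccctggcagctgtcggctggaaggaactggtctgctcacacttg

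The CLDN7 window held 5 E-box matches, of which 3 begin within 20 bases of the start. JUP, DSG2 and DSP held 2 each, DSC2 held 1 and PKP4 held 0. CLDN4 held 2 AP-1 matches, which begin 242 and 161 bases before the start, and no E-box. The 15 genes without a window, among them CDH1, PPL and EVPL, are in none of the following counts. Over the 25 genes, 13 (52.0%) held an E-box in at least 1 window. The same share was 24.7% of the 10303 tested genes with a window and 24.1% of all 27305 genes with a window. A gene with more windows has more room for a match. The 25 genes have 39 windows, and the 27305 genes have 35116. Of 10 rising genes with a window 7 held one, and of 4 falling genes 2 did. The grainyhead core was found for 2 genes, CGN and CTNNA1 (8%, against 3.77% of the tested genes with a window and 4.36% of all genes with a window). The AP-1 site was found for 3, CLDN2, CLDN4 and GJA1 (12%, against 7.14% of those tested genes and 9.37% of all genes with a window). These are matches of letters in a window and show nothing about binding.

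Tight junction genes moved in both directions, and the 2 most abundant claudins exchanged their order. CLDN7, a barrier claudin of intestinal epithelium (ENSG00000181885, chromosome 17, 7259903 to 7263983, minus strand), stood at 328, 313 and 303 TPM in WT and at 264, 263 and 267 TPM in CSE. Each WT value lay above each CSE value (1.19-fold lower, log2 fold change -0.25 with SE 0.0384 and limma adjusted p = 1.63e-05). CLDN4, a claudin that restricts sodium passage, stood at 274, 256 and 251 TPM and at 278, 275 and 271 TPM. Its groups overlapped and it did not pass (log2 fold change 0.08, 95% interval -0.005 to 0.16, limma adjusted p = 0.108), except without WT replicate 1 (0.11, limma adjusted p = 0.0174). CLDN3, its neighbour at 29272 bases on chromosome 7, stood at 70.8, 66.3 and 68.8 TPM in WT and 81.2, 84.7 and 84.2 TPM in CSE. The groups did not overlap (log2 fold change 0.28 with SE 0.0423 and limma adjusted p = 1.28e-05).

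Within each WT library CLDN7 was above CLDN4, and within each CSE library it was below it. The ratio of CLDN7 to CLDN4 was 1.20, 1.22 and 1.21 in WT and 0.949, 0.958 and 0.986 in CSE. Multiplying all values of a library by a constant does not change this ratio. Over all 24 claudin genes in the table, CLDN7 held 43.7% ± 0.136 of the summed TPM in WT and 38.4% ± 0.420 in CSE, CLDN4 36.2% ± 0.242 and 39.8% ± 0.489, and CLDN3 9.54% ± 0.328 and 12.1% ± 0.259 (SD, n = 3). CLDN12, a claudin that lacks the usual PDZ-binding end, held 4.91% and 4.88% and did not pass (log2 fold change -0.07, limma adjusted p = 0.283), though it passed as lower with mitochondrially encoded genes left out (-0.13, limma adjusted p = 0.0334).

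**Figure D4:**
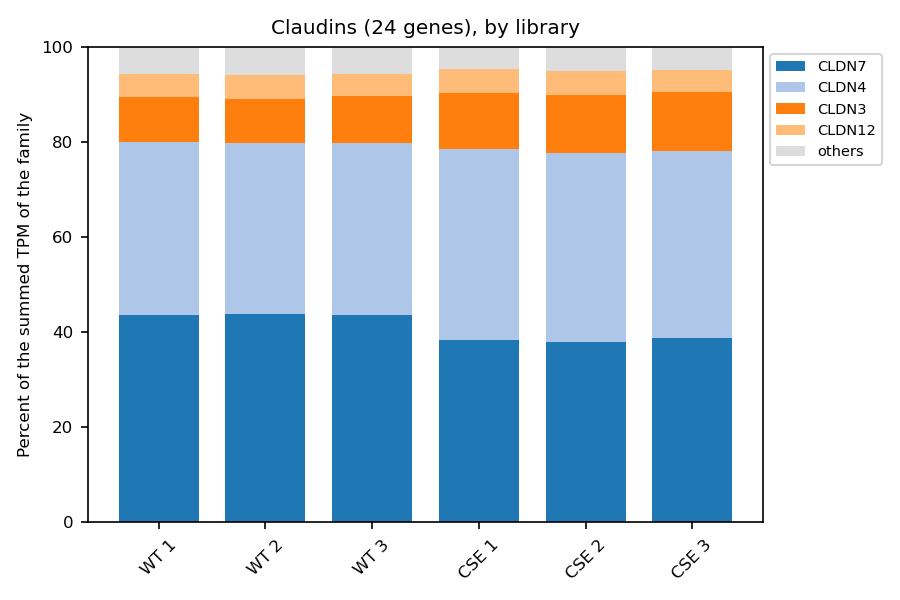
Share of the summed TPM of all claudin genes held by each gene in each library, in percent; grey holds all other claudin genes. CLDN7 is the largest share in every WT library and CLDN4 in every CSE library.

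CLDN1 and CLDN2, both of low level, fell. CLDN1, a sealing claudin, was at 1.45, 1.44 and 1.29 TPM in WT and at 0.77, 0.83 and 0.77 TPM in CSE. All CSE values were under 1 TPM and all WT values above it (1.76-fold lower by the means, log2 fold change -0.42 with SE 0.101 and limma adjusted p = 0.00163). As CLDN1 passed the filter through the WT libraries alone, its direction was fixed beforehand, and the call is no support for a fall. CLDN2, which forms pores for cations and water in leaky epithelia, was at 2.88, 3.95 and 3.20 TPM and at 2.30, 2.85 and 2.48 TPM. The lowest WT and the highest CSE value lay only just apart (log2 fold change -0.29 with SE 0.0968 and limma adjusted p = 0.0168). CLDN2 no longer passed without WT replicate 2 (-0.19, limma adjusted p = 0.146), without CSE replicate 1 (0.0596), without the filter (0.0669) or with quantile normalization (0.082).

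Of the scaffold genes TJP3 and CGN rose and TJP1 fell. TJP3, which encodes ZO-3, a ZO protein restricted to epithelia, stood at 71.7, 65.8 and 65.0 TPM in WT and at 83.1, 84.6 and 81.4 TPM in CSE. Its ranges in WT and CSE were separate (log2 fold change 0.30 with SE 0.0447 and limma adjusted p = 1.14e-05). TJP1, which encodes ZO-1, the scaffold that claudins and occludin bind, stood at 54.9, 53.4 and 53.0 TPM in WT and at 50.1, 52.0 and 43.5 TPM in CSE. CSE replicate 3 was the lowest, and all CSE values were under all WT values (log2 fold change -0.15 with SE 0.0539 and limma adjusted p = 0.0263). That call rested on few samples: it ended without CSE replicate 3 (-0.07, limma adjusted p = 0.127) and without WT replicate 1 (0.107), and also without the filter (0.103) and without the variance trend (0.0889). CGN, the cingulin gene, had means of 41.5 and 45.9 TPM (log2 fold change 0.14 with SE 0.0482 and limma adjusted p = 0.0189). It did not pass without WT replicate 2 (limma adjusted p = 0.07), WT replicate 3 (0.104) or CSE replicate 1 (0.0751), with mitochondrially encoded genes left out (0.0909) or without the variance trend (0.051).

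Among the 13 tight junction genes of the 40, F11R was the only gene of a transmembrane protein other than a claudin that passed. F11R encodes junctional adhesion molecule A, which recruits polarity proteins, and fell from a mean of 65.6 to 57.7 TPM with no overlap between the groups (log2 fold change -0.18 with SE 0.0429 and limma adjusted p = 0.0013). In GENCODE 29 it shares 1853 exonic bases with another locus on the same strand, AL591806.3 (0.95 TPM in WT and 0.92 TPM in CSE in the table), so reads of these loci may be shared. OCLN, the occludin gene, had means of 14.1 and 14.5 TPM, MARVELD2, the gene of tricellulin at tricellular contacts, 10.2 and 11.1 TPM, and MARVELD3 9.72 and 9.92 TPM. None of these 3 passed (limma adjusted p = 0.605, 0.114 and 0.78). MARVELD3 shares 1068 exonic bases with PHLPP2 on the opposite strand (6.99 TPM in WT and 6.86 TPM in CSE), so reads of these genes may be shared. MARVELD2 passed as higher with median-of-ratios scaling (limma adjusted p = 0.0433) and quantile normalization (0.0145).

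Of the 2 gap junction genes only GJB2 was above the filter, and it did not pass the test. GJB2 encodes connexin 26 and stood at 61.2, 61.5 and 57.4 TPM in WT and at 61.0, 59.2 and 59.3 TPM in CSE. The groups overlapped (log2 fold change -0.003, 95% interval -0.09 to 0.09, limma adjusted p = 0.953). GJA1, which encodes connexin 43, the connexin of many mesenchymal and cardiac cells, was listed at 0.24, 0.24 and 0.49 TPM in WT and at 0.29, 0.61 and 0.44 TPM in CSE and was not tested.

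Among the epithelial regulators and markers, the 2 splicing regulators moved in opposite directions. ESRP1 stood at 150.2, 152 and 147 TPM in WT and at 171, 172 and 157 TPM in CSE. No WT value reached the CSE range (log2 fold change 0.15 with SE 0.0416 and limma adjusted p = 0.00416), and with quantile normalization the call ended (0.09, limma adjusted p = 0.0553). Its paralog ESRP2 stood at 34.3, 33.8 and 33.4 TPM and at 30.6, 30.4 and 28.1 TPM. All CSE values were below all WT values (log2 fold change -0.18 with SE 0.0492 and limma adjusted p = 0.0039). ESRP2 shares 149 exonic bases with NFATC3 on the opposite strand, which had 16.3 TPM in WT and 15.8 TPM in CSE. The ratio of ESRP1 to ESRP2 was 4.38, 4.49 and 4.40 in WT and 5.58, 5.65 and 5.59 in CSE.

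EPCAM, an adhesion molecule that binds claudin-7 in intestinal epithelium, was the most abundant of all 40 genes by the means. It stood at 328, 323 and 306 TPM in WT and at 338, 342 and 359.9 TPM in CSE. WT and CSE ranges were separate (1.09-fold, log2 fold change 0.12 with SE 0.0392 and limma adjusted p = 0.0144). The call was lost without WT replicate 3 (0.09, limma adjusted p = 0.079), with mitochondrially encoded genes left out (0.06, limma adjusted p = 0.0973) and without the variance trend (0.0718). ST14 had means of 169.6 and 170.2 TPM (log2 fold change 0.005, 95% interval -0.07 to 0.08, limma adjusted p = 0.924). GRHL2 had means of 21.8 and 23.1 TPM (log2 fold change 0.08, limma adjusted p = 0.259) and passed as higher without CSE replicate 3 (0.13, limma adjusted p = 0.0415). MUC1, a mucin of the apical surface, was low, at 2.20 ± 0.212 TPM in WT and 2.57 ± 0.230 in CSE, and did not pass (limma adjusted p = 0.158).

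The genes around these 40 were examined in 7 lists, and each list is described by its counts beside the background of 24.5% higher and 25.6% lower. Among 18 other adherens junction genes 15 were tested, of which 6 rose and 3 fell (median log2 fold change 0.09). CDH24, a cadherin that binds catenins, rose (0.39) and so did NECTIN3 (0.32). PVR, the poliovirus receptor and a partner of NECTIN3, fell from 73.4 to 50.4 TPM (-0.53, limma adjusted p = 3.46e-09), and PTPRF, a receptor phosphatase, fell as well (-0.30). Of 8 other desmosome genes 3 were tested, 0 rose and 2 fell. These were KAZN, which encodes kazrin, a periplakin partner (-0.36), and CDSN, the corneodesmosin gene (-0.28), whose call ended in 8 alternatives. PERP, a tetraspan protein of desmosomes, was at 211 to 221 TPM and did not pass. The genes DSG1, DSG3, DSG4, DSC1 and PKP1 of stratified epithelia did not exceed 0.18 TPM in any library.

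Among 27 other tight junction genes 14 were tested, 3 rose and 5 fell (median -0.09). MAGI1, a scaffold that binds beta-catenin, rose from 23.7 to 36.0 TPM (0.58, limma adjusted p = 5.93e-09) and ILDR1, an angulin gene, from 6.03 to 7.46 TPM (0.27, limma adjusted p = 0.00433). CLDN23 fell from 10.9 to 7.5 TPM (-0.49, limma adjusted p = 2.14e-06), and ILDR2, a paralog of ILDR1, fell too (-0.44). Of 14 other gap junction and pannexin genes 7 were tested, 1 rose and 2 fell (median -0.12). GJC1, the connexin 45 gene, fell the most, from 11.2 to 6.81 TPM (-0.65, limma adjusted p = 5.79e-08), and PANX2, a pannexin gene, fell as well (-0.24, but limma adjusted p = 0.0527 without WT replicate 1), while GJB5 rose (0.24, with a call that ended in 3 alternatives).

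All 17 polarity genes were tested, 4 rose and 3 fell (median -0.003). DLG3 and DLG5 rose (0.23 and 0.22), and DLG1 and PARD6B fell (-0.30 and -0.28). Of 18 other epithelial genes, all tested, 8 rose and 2 fell (median 0.12). PRSS22, an epithelial serine protease gene, rose from 36.8 to 52.6 TPM (0.50) and MAP7, a microtubule-binding protein gene, rose as well (0.28), while CDS1 (-0.31) and MAL2, a protein of apical transport (-0.23), fell. In the list of 15 repressors of epithelial genes and mesenchymal markers 9 were tested, 1 rose and 2 fell (median 0.07). SNAI2, the gene of the repressor SLUG, fell from 3.10 to 1.42 TPM (-0.76, limma adjusted p = 7.47e-07) and FN1, the fibronectin gene, from 16.2 to 11.7 TPM (-0.44), while SPARC, a matrix protein gene, rose from 2.78 to 6.25 TPM (0.94, limma adjusted p = 1.29e-09). SNAI1 (33.7 to 37.3 TPM) and ZEB1 (1.27 to 1.70 TPM) did not pass, VIM stood at 0.52 to 0.77 TPM in WT and 0.80 to 1.14 TPM in CSE, with no overlap, and was not tested, and CDH2 and ZEB2 were at most 0.15 and 0.03 TPM.

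**Figure D5:**
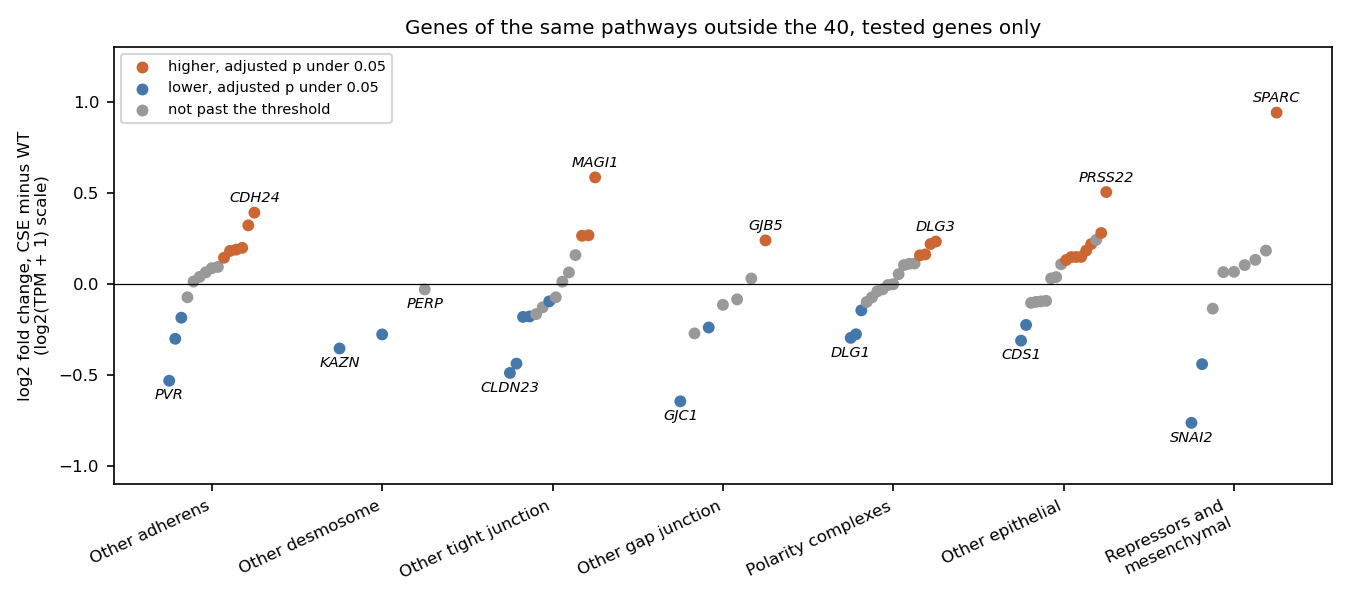
Log2 fold change (CSE minus WT, from log2(TPM + 1) values) of every tested gene in 7 lists of related genes outside the 40; orange marks genes that rose, blue genes that fell, grey genes past no threshold, and the lowest and highest gene of each list are named. The widest spread is from -0.76 for SNAI2 to 0.94 for SPARC.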

How the data were processed

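Poly(A) RNA-seq of 6 HCT116 samples (3 WT, 3 CSE) was analysed from 1 table of 20263 genes, in which 0 sample columns were left unmapped. The authors deposited TPM, so depth is unknown and no counting interval or count model was used. Per the submitters' processing notes, FastQC 0.11.2, Trimmomatic 0.36, HISAT2 2.0, bedtools 2.26.0 and GRCh38 were named; no counter, annotation or strand setting is named there, so reads of overlapping genes cannot be separated. Symbols were matched for 20148 genes, and positions and exon overlaps come from GENCODE 29.

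Genes at 1 TPM in at least 3 libraries were tested on log2(TPM + 1), CSE minus WT, with limma 3.58.1 in R 4.3.3 (mean-variance trend, no covariate, Benjamini-Hochberg threshold 0.05), which understates changes of low genes. Checked on a simulation of CSE against WT with 12793 genes and 50 changed per size, it recovered 8% of changes of 1.1-fold, 68% of 1.25-fold and 94% of 1.5-fold, with 7 false calls. Few genes were changed in the simulation, whereas 50.1% of the genes tested in the data were called, so its adjusted threshold was stricter. The simulated shares therefore do not give the recovery in the data. Genes named are CDH1, EPCAM, up to 5 called genes per type with the largest change, and up to 2 related genes per direction and list. Genes named outside this rule, and the within-library ratios, were chosen after their values were seen. The members and lists were chosen with earlier results of these data known. Some related genes are not reported here and were left out of their lists. Alternatives tried: no filter, a mean of at least 5 TPM, a pseudocount of 0.1, 3 scalings, no variance trend, the replicate block and leaving out each library.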

Additional observations from a re-analysis of the deposited data

How the results depend on the processing

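Of 529 recomputed values of the tested genes, 483 kept their direction and their side of the threshold, and 18 of the 24 called genes did so in every alternative in which they were tested. The 8 desmosome calls held in all of them. The labels do not say whether replicate numbers pair the samples. Same-numbered samples showed no shared deviation from their group means (correlations -0.07, 0.02 and -0.09), which cannot settle whether they were prepared together. The fit with the replicate block gave 18 higher and 6 lower, as without it. Where calls were gained or lost, the cause was not tested. A mean of at least 5 TPM removes CLDN1, CLDN2 and MUC1 from the genes tested.

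Tight junction genes that fell numbered 3 without the filter and 3 at a mean of at least 5 TPM. Epithelial regulators that rose numbered 1 with mitochondrially encoded genes left out, 1 without the variance trend and 1 to 3 when a library was left out. With mitochondrially encoded genes left out, the sums in CSE over WT were 1.04 for all 40 genes, 1.03 for adherens, 0.945 for tight junction, 0.96 for gap junction and 1.02 for epithelial genes. In the deposited TPM these ratios were 1.08, 1.08, 0.983, 0.999 and 1.06.

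The genes that changed direction had no call in either setting. With median-of-ratios scaling CDH1 was at 0.0014 and GJB2 at 0.0013. With quantile normalization NECTIN2 was at -0.018 and ST14 at -0.046. With mitochondrially encoded genes left out NECTIN2 was at -0.042, OCLN at -0.016, MARVELD3 at -0.028 and ST14 at -0.053. Leaving out 1 library gave -0.038 to 0.053 for CDH1, -0.060 to 0.040 for PKP2, -0.029 to 0.079 for MARVELD3, -0.035 to 0.014 for GJB2 and -0.013 to 0.023 for ST14.

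Among related genes, other desmosome genes that fell numbered 1 with a pseudocount of 0.1, without the filter, at a mean of at least 5 TPM, with median-of-ratios scaling and without the variance trend, and 1 to 2 with a library left out. Other gap junction genes that rose numbered 0 without the filter and 0 to 1 with a library left out, and those that fell 4 with mitochondrially encoded genes left out and 1 to 3 with a library left out. Polarity genes that fell numbered 5 with quantile normalization, and 5 fell and 2 rose with mitochondrially encoded genes left out. Those that rose with a library left out numbered 2 to 5. Other epithelial genes that rose numbered 5 without the filter, and 3 rose and 6 fell with mitochondrially encoded genes left out. With a library left out 5 to 9 rose and 2 to 4 fell. Other tight junction genes that fell with a library left out numbered 3 to 6. Repressors and mesenchymal genes that fell numbered 1 at a mean of at least 5 TPM, and those that rose 3 with quantile normalization and 1 to 3 with a library left out.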

Other observations

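Several of these genes lie beside a related gene on the same chromosome, and such neighbours did not always move together. On chromosome 1, F11R fell (-0.18) and NECTIN4, 49647 bases away, rose (0.58). On chromosome 18, DSC2 (0.53) and DSG2 (0.24) rose, while DSC1, DSG1, DSG4 and DSG3, which lie between them in the desmosomal cadherin cluster, and DSC3 beside DSC2 were not tested because of their low level. These neighbours were looked up after the values were seen, and the difference between neighbours was not tested.

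Ratios of other pairs within a library were also apart between the groups, with no test made. CDH1 was above CDH3 in every WT library (ratios of 1.01, 1.08 and 1.06) and below it in every CSE library (0.963, 0.943 and 0.867). The ratio of PPL to DSP was 1.02, 0.990 and 0.985 in WT and 1.21, 1.17 and 1.27 in CSE. These pairs were also chosen after the values were seen.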
